A study of Mus musculus with 151 samples.

Results

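Whole ovaries of female mouse fetuses at E18.5 were compared between naturally conceived fetuses (Natural) and fetuses conceived by IVF. The members are the RNA-seq libraries whose labels give an E18.5 ovary as tissue, 10 of the 151 samples of the series, of which 4 were Natural and 6 were IVF. Natural fetuses came from CF-1 females mated with B6/SJL males. IVF fetuses came from eggs of superovulated CF-1 females and sperm of B6/SJL males, cultured to the blastocyst stage and transferred to pseudopregnant recipients. Both groups were female and had no engineered allele in their labels. The methods name 5 to 6 individuals per group and different litters, whereas the series holds 4 Natural libraries at E18.5. Whether any of the 10 fetuses shared a litter is not given in the sources used here. The IVF group also differed from Natural by hormone stimulation of the egg donor, embryo culture, embryo transfer and the uterine environment of the recipient. The labels place all 10 ovaries at E18.5, whereas one passage of the methods places the cesarean section of IVF pregnancies 1 day later than that of natural pregnancies, so conception mode and collection day cannot be told apart from the sources used here. Ovaries of the same crosses at 12 weeks (4 Natural, 5 IVF) and 39 weeks (5 and 5) were used only to test whether the IVF difference at E18.5 differed from that in the adult.

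Around birth the mouse ovary holds oocytes that have entered meiosis and pass through prophase I, in which homologous chromosomes form an axis, break, pair along the synaptonemal complex and recombine, before they arrest. At the same time germ cell cysts break apart and pregranulosa cells enclose single oocytes in primordial follicles. Oocyte transcription factors such as Figla and Nobox switch on genes of the egg coat and of the store of maternal mRNA, so genes of meiotic entry, of prophase and of oocyte growth follow each other as a developmental sequence. Libraries were made from whole gonads, in which fewer cells of a type and less RNA per cell cannot be told apart.

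Sequences of the regions around annotated transcription starts of genes on which the germline results turn are given first, from 250 bases before to 50 after the start (RefSeq, GRCm38.p6). The start used need not be the outer end of the gene. Btg4 spans 51102147 to 51119924 on chromosome 9 and Khdc3 73101381 to 73106631, and both windows lie inside the gene. Zp3, Khdc3, Btg4 and Padi6 are oocyte genes that were lower in IVF, and Sycp2 is a meiotic chromosome gene that was higher. Capitals mark every match to the E-box CANNTG, the motif bound by basic helix-loop-helix factors such as Figla, which reads the same on both strands, and overlapping matches run together.
Zp3 (chr5:135979855-135980154, plus strand): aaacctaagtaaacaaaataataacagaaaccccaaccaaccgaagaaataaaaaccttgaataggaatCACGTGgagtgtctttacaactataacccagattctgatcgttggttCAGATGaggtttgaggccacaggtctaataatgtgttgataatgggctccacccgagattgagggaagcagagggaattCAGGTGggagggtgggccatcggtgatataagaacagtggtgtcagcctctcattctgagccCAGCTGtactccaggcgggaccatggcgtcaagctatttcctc
Khdc3 (chr9:73102148-73102447, plus strand): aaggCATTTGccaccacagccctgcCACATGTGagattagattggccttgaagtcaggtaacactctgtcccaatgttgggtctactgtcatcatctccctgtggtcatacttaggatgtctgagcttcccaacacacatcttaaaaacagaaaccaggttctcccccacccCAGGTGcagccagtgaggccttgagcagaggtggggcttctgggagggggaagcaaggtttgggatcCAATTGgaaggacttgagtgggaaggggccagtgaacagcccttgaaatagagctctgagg
Btg4 (chr9:51115751-51116050, plus strand): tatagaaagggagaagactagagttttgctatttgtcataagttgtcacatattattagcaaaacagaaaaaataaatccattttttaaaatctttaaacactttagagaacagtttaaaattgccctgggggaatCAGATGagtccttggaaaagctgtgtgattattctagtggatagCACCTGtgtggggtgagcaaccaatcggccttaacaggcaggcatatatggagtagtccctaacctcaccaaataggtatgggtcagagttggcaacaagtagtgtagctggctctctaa
Padi6 (chr4:140742594-140742893, minus strand): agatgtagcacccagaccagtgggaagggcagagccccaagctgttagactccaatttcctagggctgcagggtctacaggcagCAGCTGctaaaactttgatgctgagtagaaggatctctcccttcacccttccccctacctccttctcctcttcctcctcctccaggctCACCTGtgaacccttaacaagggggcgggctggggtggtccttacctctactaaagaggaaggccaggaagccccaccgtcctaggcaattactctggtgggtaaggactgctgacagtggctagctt
Sycp2 (chr2:178407609-178407908, minus strand): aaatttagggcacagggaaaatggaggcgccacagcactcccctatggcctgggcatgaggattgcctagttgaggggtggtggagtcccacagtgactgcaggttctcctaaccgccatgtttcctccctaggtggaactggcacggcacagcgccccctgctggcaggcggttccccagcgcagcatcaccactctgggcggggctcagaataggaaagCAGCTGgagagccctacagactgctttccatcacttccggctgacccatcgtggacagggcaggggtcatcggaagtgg
The windows held 4, 5, 2, 2 and 1 matches in this order. Of the 13 genes of the zona pellucida and oocyte growth lists that were lower in IVF, 9 had an entry, with 11 windows, and 10 of these windows (90.9%) held the motif. It is common in windows of this length: 72.3% of all 32851 promoter windows held at least 1 match. A match is a description of the letters and was not tested as a binding site.

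Libraries held 6995713 to 14830788 counts assigned to genes. CPM denotes the count of a gene relative to the TMM-scaled size of its library, and a gene was called where edgeR's quasi-likelihood test gave a Benjamini-Hochberg adjusted p below 0.05. Among 16415 genes tested, 2.67% were called higher and 2.75% lower in IVF, and 24.1% had an unadjusted p below 0.05. The groups did not overlap in 8.61% of genes. In 4.28% every IVF library was above every Natural library, and in 4.33% every one was below. DESeq2 called 5.68% higher and 6.04% lower. The labelled tissue was checked against its markers: Foxl2, the pregranulosa transcription factor, was at 148, 189, 110.2 and 209 CPM in Natural 1 to 4 and from 122 to 229.6 (median 182) in IVF, and Ddx4, the germ cell RNA helicase, at 41.9, 46.3, 16.0 and 40.6 CPM in Natural 1 to 4 and from 23.9 to 57.8 (median 47.7) in IVF. Natural 3 had the lowest level of both genes. The Y-linked helicase gene Ddx3y reached at most 6 counts in a library. Skeletal muscle genes summed to 47.5, 239, 56.9 and 91.4 CPM in Natural 1 to 4 and to 20.2 to 526 (median 117) in IVF, highest in IVF 2 and IVF 4, and liver genes to 120.0, 351, 534 and 53.8 CPM and 29.1 to 866 (median 296). Both sums varied widely within each group, and their part in the results was not tested.

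Several libraries stood apart. IVF 2 and IVF 4 had the lowest oocyte growth levels and the highest skeletal muscle and globin levels. Natural 3 had far more small noncoding RNA than the others, 625 against 76.5 to 108 CPM in sum, and Natural 1 had the lowest Xist and Meg3, at 606 and 178 CPM. Leaving out IVF 2 and IVF 4 together left 3 genes called higher (Kcng3, Ccnb3 and D1Pas1) and 2 called lower (Bc1 and Bst2), so every other call described below was lost without these libraries. Leaving out Natural 1 and Natural 3 together left 924 higher and 912 lower. Without Natural 1 alone, 1056 genes were called higher and 917 lower, and 855 of the calls made with all libraries were kept.

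Fold changes followed the exonic length of the gene, which bears on every group of short or long genes. Among 875 tested genes with under 1000 bp of exon the median log2 fold change was -0.32, with 10 called higher and 118 lower. Among 2451 genes over 6000 bp the median was 0.24, with 216 called higher and 4 lower. The trend was a property of single libraries. In Natural 2, 3 and 4 the median log2 level of genes under 1000 bp lay 0.52, 0.34 and 0.70 above that of genes over 6000 bp, each relative to the mean of all libraries. In Natural 1 it lay below by the log2 difference of -0.19, inside the range of the 6 IVF libraries (-0.28 to -0.13). The trend thus separated 3 of 4 Natural libraries from all IVF libraries, and its part in the results cannot be told apart from conception mode by the grouping alone. The E18.5 comparison was therefore refitted with a smooth length trend per library as an offset, which called 0.926% of genes higher and 0.761% lower; 136 of the genes called higher and 101 of those called lower without the offset remained. Of the 110 named genes that were called, 49 were called with it.

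**Figure D1:**
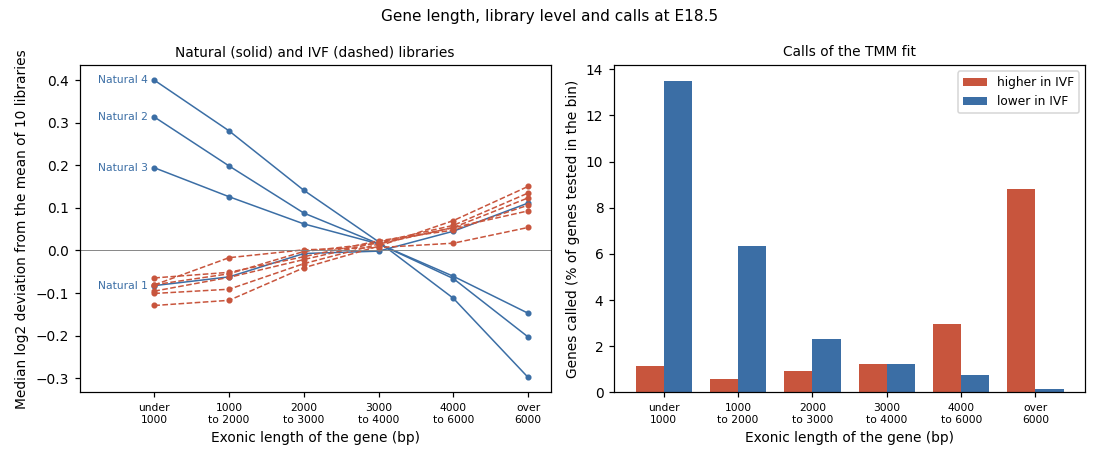
Left, median log2 deviation of each library from the mean of the 10 libraries, for tested genes in 6 bins of exonic length; solid lines are Natural and dashed lines IVF libraries. Right, percent of the tested genes in each bin that were called higher or lower in IVF. Natural 2, 3 and 4 fall from left to right, Natural 1 runs with the IVF libraries, and calls are mostly lower in the shortest bin (13.5%) and higher in the longest (8.81%).

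Genes listed as primordial germ cell and pluripotency factors are taken first. Dppa3 of this list is also in the oocyte growth list, and which germ cell stage these transcripts came from was not tested. Of 15 tested primordial germ cell and pluripotency genes, 2 were lower and 1 was higher, with a median log2 fold change of -0.73 against 0.00 over all tested genes. Pou5f1, the pluripotency factor that germ cells lose as they enter meiosis, was at 12.8, 12.1, 3.79 and 31.5 CPM in Natural 1 to 4 and from 0.985 to 5.18 (median 2.90) in IVF (log2 fold change -2.32 ± 0.53 (SE), adjusted p = 0.026). The groups overlapped only at Natural 3, which lay within the IVF range. Dppa5a, another pluripotency-associated gene, was at 7.91, 9.07, 4.69 and 21.5 CPM in Natural 1 to 4 and from 0.591 to 6.13 (median 2.63) in IVF (log2 fold change -1.95 ± 0.50 (SE), adjusted p = 0.041). Lin28b, an RNA-binding protein that blocks let-7 maturation, went the other way, at 2.50, 3.17, 2.99 and 3.92 CPM in Natural 1 to 4 and from 4.61 to 11.1 (median 8.73) in IVF, with every IVF library above every Natural one (log2 fold change 1.45 ± 0.28 (SE), adjusted p = 0.015). The Pou5f1 call was lost without any of Natural 2, Natural 4, IVF 2, IVF 4, IVF 6 (adjusted p from 0.02 to 0.09), and the Dppa5a call without any of Natural 2, Natural 4, IVF 1, IVF 2, IVF 3, IVF 4, IVF 5 (adjusted p from 0.031 to 0.15). Lin28b held in all 10 and with the length offset, at 1.31 (adjusted p = 0.04).

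Tested germ cell identity genes, among them RNA-binding proteins and piRNA factors, numbered 14, of which 1 was higher by edgeR and 4 by DESeq2, 11 had a positive fold change, and the median was 0.32. Dazl, an RNA-binding protein needed for germ cell development, was at 60.4, 75.6, 36.6 and 74.6 CPM in Natural 1 to 4 and from 71.4 to 123.1 (median 96.7) in IVF (log2 fold change 0.65 ± 0.23 (SE), adjusted p = 0.10). Ddx4 had a log2 fold change of 0.28 ± 0.30 (adjusted p = 0.60) and Kit, the receptor on oocytes for Kit ligand, one of -0.10 ± 0.31 (adjusted p = 0.88). Tex15, which acts in meiotic recombination and transposon silencing, was the called gene, at 179, 249.9, 137 and 179.9 CPM in Natural 1 to 4 and from 256 to 459 (median 351) in IVF (log2 fold change 0.93 ± 0.20 (SE), adjusted p = 0.023). All 6 IVF values lay above the 4 Natural values, and the call was lost without Natural 3 or Natural 4 (adjusted p from 0.026 to 0.057) and with the offset, 0.67 (adjusted p = 0.13). Summed levels of the list were 956, 1189.5, 497 and 1175 CPM in Natural 1 to 4 and 776 to 1555 (median 1417) CPM in IVF, lowest in Natural 3, IVF 2 and IVF 4.

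Among 8 tested regulators of meiotic entry 4 were higher in IVF and none lower. The other 4 had negative fold changes that were not called, and the median of the list was 0.06. Meioc, which with the helicase Ythdc2 clears mitotic transcripts so that prophase can proceed, was at 2.66, 2.54, 1.20 and 1.35 CPM in Natural 1 to 4 and from 5.18 to 15.9 (median 7.07) in IVF. Its lowest IVF value was above the highest Natural value (log2 fold change 2.16 ± 0.39 (SE), adjusted p = 0.014, a 4.47-fold difference). Ythdc2 itself was at 27.4, 17.8, 20.2 and 18.0 CPM in Natural 1 to 4 and from 26.5 to 44.2 (median 37.2) in IVF (log2 fold change 0.79 ± 0.17 (SE), adjusted p = 0.023), with IVF 3 below Natural 1. Rbm46, an RNA-binding partner of these proteins, was at 18.9, 20.0, 15.8 and 20.3 CPM in Natural 1 to 4 and from 24.3 to 37.4 (median 32.3) in IVF and did not overlap (log2 fold change 0.74 ± 0.14 (SE), adjusted p = 0.015). Gm4969, the gene of Meiosin, which drives meiotic genes together with Stra8, was at 26.4, 21.3, 8.98 and 25.2 CPM in Natural 1 to 4 and from 31.5 to 45.4 (median 41.8) in IVF, again without overlap (log2 fold change 0.96 ± 0.24 (SE), adjusted p = 0.037). Stra8, the retinoic acid target that starts meiosis, was at 0 in 9 libraries and at 4 counts in IVF 1.

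Calls for Meioc and Rbm46 held whichever library was left out (adjusted p from 0.0088 to 0.036 and 0.012 to 0.038) and with the length offset, 2.08 (adjusted p = 0.029) and 0.83 (adjusted p = 0.024). Ythdc2 lost its call without any of Natural 2, Natural 3, Natural 4, IVF 2, IVF 6 (adjusted p from 0.007 to 0.073), and Gm4969 kept it only without Natural 1 or without Natural 3 (adjusted p from 0.021 to 0.088). With the offset, Gm4969 had 1.10 (adjusted p = 0.046) and Ythdc2 0.59 (adjusted p = 0.06).

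Of 22 tested genes of the chromosome axis and synaptonemal complex, 3 were higher, none was lower, and the median was 0.33. Sycp2, an axis protein on chromosome 2, 178345295 to 178407776 (GRCm38.p6), was at 10.1, 17.1, 9.37 and 10.3 CPM in Natural 1 to 4 and from 27.2 to 40.1 (median 32.3) in IVF (log2 fold change 1.496 ± 0.20 (SE), adjusted p = 0.0085). Rad21l, a meiotic cohesin subunit, was at 3.25, 2.54, 1.596 and 2.16 CPM in Natural 1 to 4 and from 5.57 to 9.85 (median 7.71) in IVF (log2 fold change 1.66 ± 0.28 (SE), adjusted p = 0.013). For 4930447C04Rik (Six6os1), a central element protein, the values were 6.58, 15.6, 6.48 and 9.26 CPM in Natural 1 to 4 and from 16.0 to 36.8 (median 27.2) in IVF (log2 fold change 1.46 ± 0.29 (SE), adjusted p = 0.017). None of the 3 overlapped between groups, and each was called in all 10 leave-one-out fits and with the length offset. Without Natural 1 and Natural 3 together the list had 2 genes higher, Sycp2 and Rad21l, 2 lower and a median of -0.02, and 4930447C04Rik was no longer called (adjusted p = 0.052). Without these libraries germ cell identity genes had 0 higher, 1 lower and a median of -0.01, and meiotic entry genes 4 higher, 1 lower and a median of 0.31.

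Other core components of the same structure were not called. Sycp3, the axis partner of Sycp2, was at 58.2, 79.7, 31.8 and 71.7 CPM in Natural 1 to 4 and from 34.5 to 71.2 (median 60.4) in IVF (log2 fold change -0.12 ± 0.25 (SE), adjusted p = 0.81). Sycp1, the transverse filament, was at 59.8, 77.1, 30.4 and 70.7 CPM in Natural 1 to 4 and from 57.8 to 164 (median 102) in IVF (log2 fold change 0.82 ± 0.27 (SE), adjusted p = 0.091), and only IVF 4 lay below the highest Natural library. Rec8, the meiotic kleisin, had a log2 fold change of -0.66 ± 0.42 (SE, adjusted p = 0.36), and Hormad1, an axis protein that marks unpaired chromosomes, had a log2 fold change of 0.47 ± 0.34 (SE, adjusted p = 0.43). The difference between Sycp2 and Sycp3 was not itself tested.

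Of 26 tested genes of double-strand break formation and repair, 5 were higher, none was lower, 21 had a positive fold change, and the median was 0.67. Ankrd31, which directs breaks to the region shared by the sex chromosomes, was at 3.50, 4.72, 1.99 and 1.83 CPM in Natural 1 to 4 and from 5.18 to 14.2 (median 8.75) in IVF and did not overlap (log2 fold change 1.52 ± 0.36 (SE), adjusted p = 0.028). Prr19 and Cntd1, partners in crossover formation, had log2 fold changes of 1.61 ± 0.41 (adjusted p = 0.04) and 1.13 ± 0.30 (adjusted p = 0.046). Spo11, which makes the breaks, was at 0.666, 2.90, 1.40 and 1.89 CPM in Natural 1 to 4 and from 1.504 to 7.01 (median 5.40) in IVF (log2 fold change 1.55 ± 0.45 (SE), adjusted p = 0.063), and Dmc1, the meiotic recombinase, had a log2 fold change of 0.52 ± 0.36 (SE, adjusted p = 0.39). Spata22, a partner of Meiob in recombination, had a log2 fold change of 1.25 ± 0.28 (SE, adjusted p = 0.026). These calls were close to the threshold. Prr19 and Cntd1 were each called in 1 of 10 leave-one-out fits (adjusted p from 0.04 to 0.086 and 0.034 to 0.095), only without IVF 4 and only without IVF 3 respectively, and Ankrd31 lost its call without any of Natural 3, Natural 4, IVF 2, IVF 5, IVF 6 (adjusted p from 0.026 to 0.072). The list had no call without Natural 3 or without Natural 4, and none without Natural 1 and Natural 3 together (median 0.28). The call of Spata22 was lost without Natural 3 or 4 or IVF 2, 5 or 6 (adjusted p up to 0.06).

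**Figure D2:**
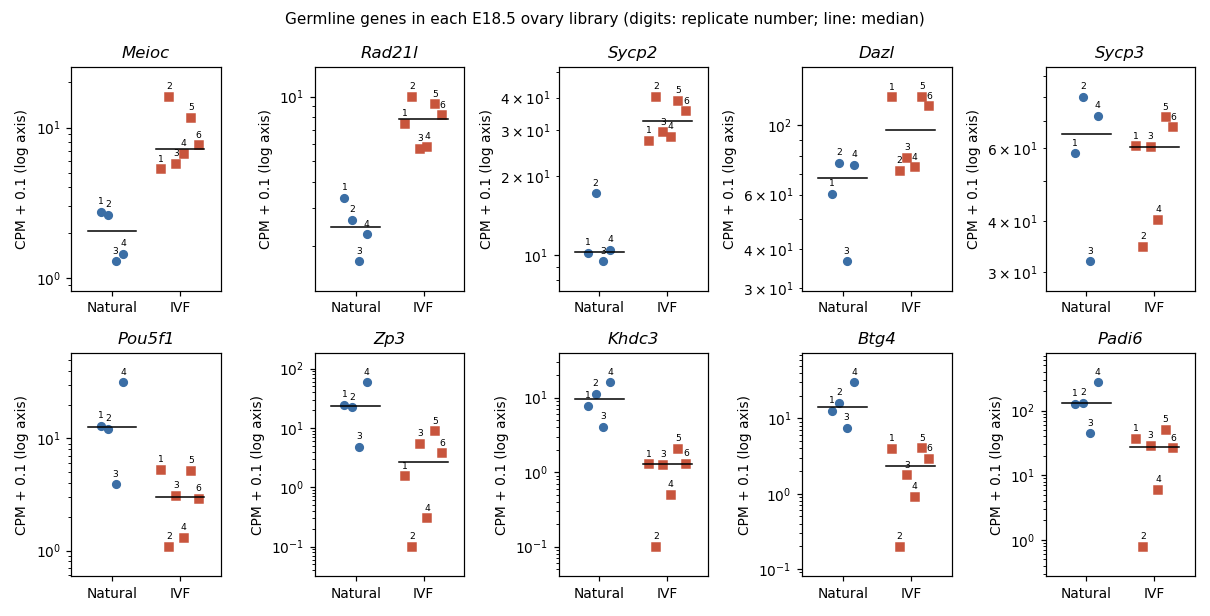
Level of 10 germline genes in each E18.5 library, as CPM plus 0.1 on a log axis; circles are Natural, squares IVF, digits the replicate number and lines the group median. Meioc, Rad21l and Sycp2 are above the Natural range in all 6 IVF libraries, Dazl and Sycp3 overlap, and Khdc3, Btg4 and 5 of 6 Padi6 values lie below it, lowest in IVF 2.

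Transcription factors that start the oocyte programme were not called, 0 of 9 tested by edgeR or DESeq2 and 0 at an unadjusted p below 0.05, with a median of -0.41. Figla was at 44.3, 76.3, 26.4 and 113 CPM in Natural 1 to 4 and from 18.8 to 58.2 (median 50.5) in IVF (log2 fold change -0.58 ± 0.37 (SE), adjusted p = 0.36) and Nobox at 88.7, 107, 49.8 and 135 CPM in Natural 1 to 4 and from 19.4 to 97.3 (median 76.4) in IVF (log2 fold change -0.50 ± 0.38 (SE), adjusted p = 0.44). Sohlh1 had a log2 fold change of -0.52 ± 0.41 (SE, adjusted p = 0.47), and Lhx8 one of -0.03 ± 0.35 (SE, adjusted p = 0.97). The groups overlapped in all 4 genes, and the lowest values were those of IVF 2, IVF 4 and Natural 3.

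Egg coat genes were lower in IVF. Of 6 tested egg coat genes 4 were lower and none higher, with a median of -2.41, and all 6 had a negative fold change. Zp1, a zona pellucida glycoprotein (chromosome 19, 10914296 to 10920601), was at 8.07, 10.7, 3.09 and 23.5 CPM in Natural 1 to 4 and from 0 to 2.80 (median 1.55) in IVF, every IVF library below every Natural one (log2 fold change -3.01 ± 0.65 (SE), adjusted p = 0.022). Zp3, a further zona glycoprotein (chromosome 5, 135980105 to 135988624), was at 24.4, 22.2, 4.69 and 58.3 CPM in Natural 1 to 4 and from 0 to 8.69 (median 2.54) in IVF (log2 fold change -3.14 ± 0.81 (SE), adjusted p = 0.04), with IVF 3 and IVF 5 above the lowest Natural value. Zp2 was at 50.6, 64.2, 25.4 and 109.95 CPM in Natural 1 to 4 and from 0.788 to 40.4 (median 17.9) in IVF and did not pass the test (log2 fold change -1.81 ± 0.63 (SE), adjusted p = 0.10). Astl, the egg protease that cleaves Zp2 after fertilization, was at 5.99, 8.16, 1.596 and 18.8 CPM in Natural 1 to 4 and from 0 to 2.80 (median 0.531) in IVF (log2 fold change -3.50 ± 0.82 (SE), adjusted p = 0.028). For Astl all 4 Natural but only 2 IVF libraries reached the filter on low counts, 0.928 CPM of the library size before TMM scaling. Astl was therefore tested because of its Natural level, and its values are a description. Cd9, a tetraspanin of the egg membrane that many other cells also carry, was at 84.4, 63.1, 68.01 and 64.2 CPM in Natural 1 to 4 and from 36.7 to 47.1 (median 42.2) in IVF with no overlap (log2 fold change -0.74 ± 0.12 (SE), adjusted p = 0.013). Oosp1, an oocyte secreted protein, had 0 counts in all 10 libraries, which allows up to 3 counts per library.

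Of 24 tested oocyte growth and maternal mRNA genes 9 were lower and none higher, with a median of -1.63, 22 negative fold changes, and 18 unadjusted p-values below 0.05. Oas1d, an oocyte member of the oligoadenylate synthetase family, was at 8.49, 11.5, 2.79 and 26.6 CPM in Natural 1 to 4 and from 0 to 2.24 (median 0.739) in IVF (log2 fold change -3.86 ± 0.69 (SE), adjusted p = 0.014). Khdc3, a member of the subcortical maternal complex, was at 7.66, 11.2, 3.99 and 15.9 CPM in Natural 1 to 4 and from 0 to 1.96 (median 1.17) in IVF (log2 fold change -3.33 ± 0.57 (SE), adjusted p = 0.013). Btg4, which later recruits deadenylase to maternal mRNA, was at 12.4, 16.1, 7.38 and 29.9 CPM in Natural 1 to 4 and from 0.0985 to 3.93 (median 2.23) in IVF (log2 fold change -2.93 ± 0.57 (SE), adjusted p = 0.016). In these 3 genes no IVF library reached the lowest Natural library, and the calls held in all 10 leave-one-out fits and with the offset, at -3.70 (adjusted p = 0.029), -3.14 (adjusted p = 0.026) and -2.79 (adjusted p = 0.033). For Oas1d all 4 Natural but only 2 IVF libraries reached the filter on low counts. Oas1d was therefore tested because of its Natural level, and its values are a description. It remains in the counts and median of its list, as Astl does in those of the egg coat list. The filter left 24 of 39 oocyte growth genes and 6 of 9 egg coat genes to test, so these counts are a description too.

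Padi6, which builds the cytoplasmic lattices of the oocyte, was at 127, 130.3, 44.5 and 272 CPM in Natural 1 to 4 and from 0.690 to 50.2 (median 27.2) in IVF (log2 fold change -2.55 ± 0.68 (SE), adjusted p = 0.045), with only IVF 5 above Natural 3. Nlrp14, a maternal-effect protein of early cleavage, was at 39.6, 30.5, 10.5 and 67.0 CPM in Natural 1 to 4 and from 0.197 to 15.8 (median 4.75) in IVF (log2 fold change -2.68 ± 0.70 (SE), adjusted p = 0.041). Nlrp5, a further member of the subcortical maternal complex, ranged from 3.00 to 80.5 (median 44.9) in IVF against 91.5, 76.9, 90.3 and 152 CPM in Natural, and was not called (log2 fold change -1.25 ± 0.65 (SE), adjusted p = 0.26). IVF 2 and IVF 4, at 5.22 and 3.00 CPM, were separated from the other 4 IVF libraries, at 29.2 CPM or more. Gdf9, the oocyte growth factor for granulosa cells, had a log2 fold change of -2.14 ± 0.48 (SE, adjusted p = 0.026), and Bmp15, its partner, stayed at or below 3.79 CPM in every library (log2 fold change -1.67 ± 0.65 (SE), adjusted p = 0.14). For Bmp15 all 4 Natural but only 1 IVF library reached the filter on low counts, so its values are likewise a description.

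Leaving out Natural 2, Natural 4 or IVF 4 ended the calls of Zp1, Zp3, Astl, Nlrp14, Padi6 and Gdf9. The egg coat list had 1 call without Natural 2, Natural 4 or IVF 4, and the oocyte growth list had 3 without Natural 2, Natural 4, IVF 4 or IVF 6. Cd9, which many other cells also carry, is the only called egg coat gene not named among these losses. Gdf9 also lost its call without IVF 6. Zp3 and Astl lost theirs also without IVF 1, 2 or 6, Nlrp14 without IVF 1, 2, 3 or 6, and Padi6 without IVF 1, 3, 5 or 6. Over the 10 fits the adjusted p ran from 0.015 to 0.07 for Zp1, from 0.032 to 0.13 for Zp3 and from 0.041 to 0.13 for Padi6. Log2 fold changes stayed negative throughout, between -3.67 and -2.45 for Zp3. Without IVF 2 and IVF 4 together, no gene of these lists was called by edgeR, and the medians were -1.93 for the egg coat and -1.36 for oocyte growth genes. With the length offset the medians were -2.28 and -1.51, with 1 and 3 genes called lower.

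To relate stages within the germline, the summed CPM of oocyte growth and egg coat genes was divided by that of germ cell identity genes in the same library, leaving out genes in both lists. The ratio was 1.28, 1.20, 1.37 and 2.08 in Natural 1 to 4 and 0.259 to 0.517 (median 0.458) in IVF. All 6 IVF ratios were below the lowest Natural ratio, including that of IVF 5, the highest, and Natural 3, whose germ cell genes were low, was within the Natural range. The same ratio for axis, synaptonemal complex and recombination genes was 0.814, 0.899, 1.37 and 0.828 in Natural and 0.846 to 1.58 (median 0.956) in IVF, and the groups overlapped. These ratios describe the libraries and were not tested, because the lists were drawn up with earlier results known.

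**Figure D3:**
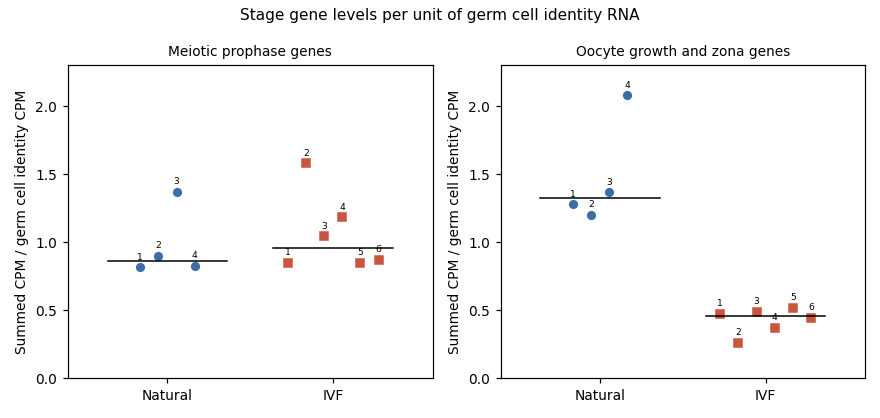
Summed CPM of meiotic prophase genes (left) and of oocyte growth and egg coat genes (right), each divided by the summed CPM of germ cell identity genes in the same library; circles are Natural, squares IVF, digits replicate numbers and lines medians. On the left the groups overlap, and on the right the IVF values end at 0.517, below the lowest Natural value of 1.20.

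Of 10 tested genes of DNA methylation enzymes and cofactors, 3 were higher and none lower, with a median of 0.17. Tet3, a dioxygenase that oxidizes 5-methylcytosine, was at 186, 133, 146 and 103 CPM in Natural 1 to 4 and from 198 to 255 (median 218) in IVF (log2 fold change 0.63 ± 0.14 (SE), adjusted p = 0.026). Tet2, of the same family, had a log2 fold change of 0.56 ± 0.13 (SE, adjusted p = 0.025), and Dnmt3a, a de novo methyltransferase, one of 0.47 ± 0.12 (SE, adjusted p = 0.04). The groups did not overlap in any of the 3, whose transcripts are long, at 11739, 9203 and 9913 bp of exon. None was called under the length offset, at 0.32 (adjusted p = 0.14), 0.29 (adjusted p = 0.21) and 0.19 (adjusted p = 0.28). Tet3, Tet2 and Dnmt3a were called in 4, 6 and 2 of 10 leave-one-out fits, and each lost its call without Natural 2, Natural 4 or IVF 2. Dnmt3l, the germline cofactor, had at most 8 counts in a library and was not tested.

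Of 22 tested pregranulosa and ovary determination genes, 2 were higher, none was lower, and the median was 0.25. Lgr5, the R-spondin receptor of the cortical pregranulosa lineage, was at 44.8, 51.7, 30.8 and 46.3 CPM in Natural 1 to 4 and from 58.2 to 82.9 (median 69.9) in IVF, without overlap (log2 fold change 0.71 ± 0.15 (SE), adjusted p = 0.023). Bmp2, a ligand of the TGF-beta superfamily, was at 20.5, 17.1, 23.3 and 12.6 CPM in Natural 1 to 4 and from 22.5 to 45.3 (median 34.0) in IVF, with IVF 3 inside the Natural range (log2 fold change 0.89 ± 0.23 (SE), adjusted p = 0.038). Neither was called without IVF 2 or without IVF 4, and neither with the offset, at 0.62 (adjusted p = 0.06) and 0.88 (adjusted p = 0.068). Among determinants of the ovary, Foxl2 had a log2 fold change of 0.16 ± 0.19 (SE, adjusted p = 0.65), Wnt4 one of -0.43 ± 0.16 (SE, adjusted p = 0.13) and Rspo1 one of -0.40 ± 0.22 (SE, adjusted p = 0.27). Fst, the activin antagonist, and Nr5a1, a steroidogenic regulator, had log2 fold changes of 0.21 and 0.08 (adjusted p = 0.65 and 0.87). Kitl, the ligand that pregranulosa cells present to Kit on oocytes, was at 192, 119, 82.0 and 80.9 CPM in Natural 1 to 4 and from 118 to 287 (median 225) in IVF (log2 fold change 0.88 ± 0.27 (SE), adjusted p = 0.076), with the highest values in IVF 4, IVF 6 and IVF 2.

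Single genes stood out in the signalling and hormone lists. Hey2, a Notch target, was lower, at 8.82, 5.44, 6.78 and 8.86 CPM in Natural 1 to 4 and from 2.00 to 5.43 (median 3.49) in IVF, and was the only called gene of 21 tested in the Notch list (log2 fold change -1.06 ± 0.28 (SE), adjusted p = 0.043), while Notch2 and Jag1, receptor and ligand, had 0.38 ± 0.14 (adjusted p = 0.12) and -0.15 ± 0.10 (adjusted p = 0.38). Lhcgr, the luteinizing hormone receptor, was low in all libraries, at 0.499, 0.181, 0.499 and 0.541 CPM in Natural 1 to 4 and from 1.25 to 4.24 (median 1.69) in IVF, (log2 fold change 2.33 ± 0.51 (SE), adjusted p = 0.024). No Natural library reached the filter on low counts, 0.928 CPM of the library size before TMM scaling, for Lhcgr, so it was tested only because its IVF level was higher, and its values are a description. Cyp17a1, which makes androgens, was likewise low, at 0.832, 0.635, 0.598 and 0.947 CPM in Natural 1 to 4 and from 1.51 to 2.26 (median 1.81) in IVF (log2 fold change 1.28 ± 0.34 (SE), adjusted p = 0.045), and 1 Natural library reached the filter, so the same limit holds. Star, which moves cholesterol into mitochondria, had a log2 fold change of 0.72 ± 0.19 (SE, adjusted p = 0.042). Mtor, the growth kinase, and Rheb, its small GTPase activator, moved oppositely, with log2 fold changes of 0.44 ± 0.10 (SE, adjusted p = 0.028) and -0.42 ± 0.11 (SE, adjusted p = 0.036). These calls held in 2 (Hey2), 6 (Lhcgr), 2 (Cyp17a1), 3 (Mtor) and 2 (Rheb) of 10 leave-one-out fits, and each was lost without Natural 2, without Natural 4 or without IVF 4, with adjusted p up to 0.13. None was called with the offset. Amh, the granulosa hormone of growing follicles, and Esr2, the granulosa estrogen receptor, had 0.67 and -0.86 (adjusted p = 0.50 and 0.20). The call of Star was lost without Natural 2, 3 or 4 or IVF 1, 2, 3, 4, 5 or 6 (adjusted p up to 0.095).

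Contractile genes were lower in IVF, with 6 of 11 tested smooth muscle and pericyte genes lower, none higher and a median of -0.87. Their sum was 1037, 896, 1264 and 938 CPM in Natural 1 to 4 and 647 to 821 (median 718) in IVF, every IVF library below every Natural one. Acta2, smooth muscle actin (chromosome 19, 34240336 to 34255585), was at 330.5, 267, 395 and 268 CPM in Natural 1 to 4 and from 104 to 199 (median 153) in IVF (log2 fold change -1.09 ± 0.17 (SE), adjusted p = 0.013). Cnn1, calponin, was at 16.8, 16.8, 17.1 and 18.3 CPM in Natural 1 to 4 and from 2.17 to 10.2 (median 5.31) in IVF (log2 fold change -1.65 ± 0.30 (SE), adjusted p = 0.014), and Lmod1, which nucleates actin filaments in smooth muscle, had a log2 fold change of -1.32 ± 0.29 (SE, adjusted p = 0.024). Actg2, enteric-type actin, was at 8.74, 7.17, 8.58 and 16.0 CPM in Natural 1 to 4 and from 1.18 to 5.57 (median 2.99) in IVF (log2 fold change -1.64 ± 0.35 (SE), adjusted p = 0.023). Acta2 and Cnn1 were called in all 10 leave-one-out fits, Actg2 was lost without Natural 4 or IVF 4, and Lmod1 was lost without Natural 3, Natural 4, IVF 2, IVF 4, IVF 5, IVF 6 (adjusted p from 0.011 to 0.068). With the length offset 5 genes were lower and the median was -0.98. Only 3 genes were called without Natural 4 or without IVF 4.

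Msln, mesothelin of the ovarian surface epithelium, was at 113, 70.1, 58.2 and 87.0 CPM in Natural 1 to 4 and from 27.5 to 48.3 (median 38.4) in IVF, without overlap (log2 fold change -1.11 ± 0.20 (SE), adjusted p = 0.013), and was the called gene of 11 tested in its list. The list had 9 negative and 2 positive fold changes, a median of -0.56 and 8 unadjusted p-values below 0.05, and DESeq2 called 4 lower. Mfap5, a microfibril protein of fibroblasts, had a log2 fold change of -1.30 ± 0.28 (SE, adjusted p = 0.023), and Lpl, lipoprotein lipase of adipocytes and other cells, one of -0.65 ± 0.16 (SE, adjusted p = 0.037). In the endothelium list 3 of 16 genes were lower and none higher, all 16 fold changes were negative, and the median was -0.32. Pecam1, an endothelial adhesion protein, was at 130.0, 97.2, 125 and 113 CPM in Natural 1 to 4 and from 77.4 to 99.5 (median 82.9) in IVF (log2 fold change -0.45 ± 0.11 (SE), adjusted p = 0.033), and Cldn5, a vascular tight junction protein, had a log2 fold change of -0.83 ± 0.20 (SE, adjusted p = 0.033). Esam, an endothelial adhesion protein, had a log2 fold change of -0.51 ± 0.11 (SE, adjusted p = 0.023). Pecam1 and Cldn5 were each called in 3 of 10 leave-one-out fits, lost without Natural 4 or any of IVF 1, 2, 4, 5 and 6, and also without Natural 3 (Pecam1) or Natural 2 (Cldn5). Macrophage and leukocyte genes showed 0 calls of 16 tested by edgeR and DESeq2, and 0 at an unadjusted p below 0.05. The endothelium list had no call without Natural 4 or without IVF 4. The call of Mfap5 was lost without Natural 4 or IVF 2, that of Lpl without Natural 1, 2 or 4 or IVF 1, 2, 4, 5 or 6, and that of Esam without Natural 4 or IVF 4 (adjusted p up to 0.08).

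Several red cell genes were higher in IVF. Globin genes summed to 589.7, 1012, 1162 and 1581 CPM in Natural 1 to 4 and to 1572 to 4488 (median 2627) in IVF, with only IVF 1 below the highest Natural library. Hbb-bs, adult beta globin, was at 386, 672, 751 and 957 CPM in Natural 1 to 4 and from 1086 to 3008 (median 1664) in IVF, without overlap (log2 fold change 1.38 ± 0.30 (SE), adjusted p = 0.023), and Hba-a1, alpha globin, was at 115, 192, 282 and 437 CPM in Natural 1 to 4 and from 328 to 820.3 (median 495) in IVF (log2 fold change 1.01 ± 0.32 (SE), adjusted p = 0.08). Of 19 other red cell genes 4 were higher and none lower, with a median of 1.27. Alas2, which starts heme synthesis in erythroid cells, was at 8.41, 13.3, 18.0 and 19.2 CPM in Natural 1 to 4 and from 29.0 to 91.2 (median 50.5) in IVF, again without overlap (log2 fold change 1.87 ± 0.33 (SE), adjusted p = 0.013). Slc4a1, the band 3 anion exchanger, had a log2 fold change of 2.10 ± 0.55 (SE, adjusted p = 0.042), and Ank1, its cytoskeletal anchor, one of 1.36 ± 0.35 (SE, adjusted p = 0.038). Hbb-y, the embryonic globin, reached at most 22 counts and was not tested. The Alas2 call held in all 10 leave-one-out fits, that of Hbb-bs was lost without Natural 2 (adjusted p from 0.021 to 0.064), and Slc4a1 held in 3 and Ank1 in 2, both lost without Natural 2, Natural 4, IVF 2, 4, 5 or 6. Under the length offset the log2 fold changes were 1.76 (adjusted p = 0.023) for Hbb-bs and 2.02 (adjusted p = 0.023) for Alas2. Liver genes overlapped between groups as given above. The list of other red cell genes had 1 call without Natural 2, Natural 4, IVF 2, IVF 4, IVF 5 or IVF 6.

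**Figure D4:**
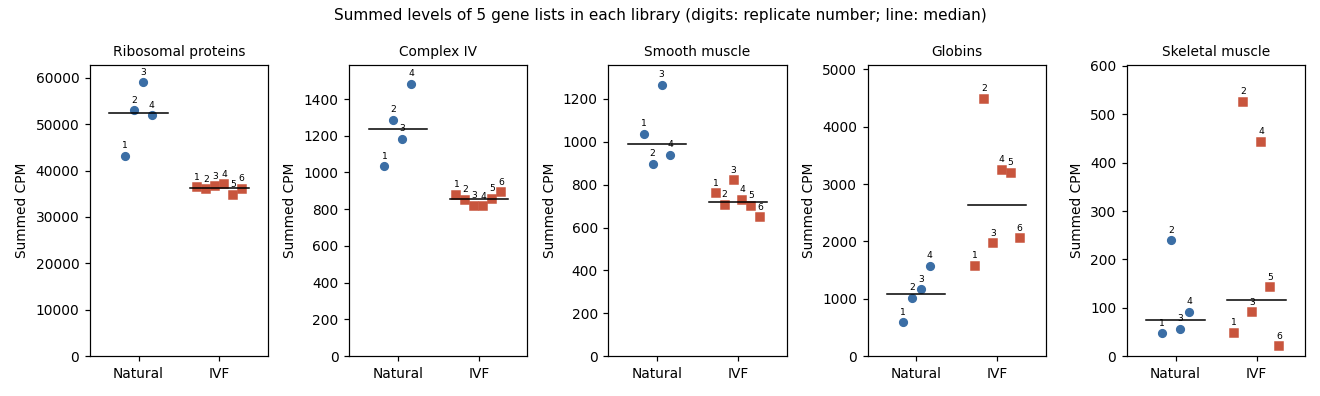
Summed CPM of 5 gene lists in each E18.5 library, on axes from 0; circles are Natural, squares IVF, digits the replicate number and lines the median. IVF libraries lie below every Natural library for ribosomal proteins, complex IV and smooth muscle, mostly above for globins, and overlap for skeletal muscle, where IVF 2 and IVF 4 are highest.

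Among the lists examined, ribosomal protein genes had the most calls. Of 84 tested cytosolic ribosomal protein genes 58 were lower and none higher, with a median of -0.52. Their sum was 43245, 52958, 59051 and 51926 CPM in Natural 1 to 4 and 34735 to 37008 (median 36269.8) CPM in IVF, and the narrow IVF range lay below Natural 1. Rpl37a, of the large subunit, was at 485, 624, 704 and 662 CPM in Natural 1 to 4 and from 329 to 411 (median 392) in IVF (log2 fold change -0.71 ± 0.11 (SE), adjusted p = 0.013). Rpl21 had a log2 fold change of -0.81 ± 0.15 (SE, adjusted p = 0.014), and Rps26, of the small subunit, one of -0.75 ± 0.14 (SE, adjusted p = 0.014). Rpl36 had a log2 fold change of -0.73 ± 0.13 (SE, adjusted p = 0.013). Rps27 and Rpsa, of the small subunit, had log2 fold changes of -0.60 (adjusted p = 0.013) and -0.62 (adjusted p = 0.013). Rpl3, which forms part of the peptidyl transferase centre, was at 540.1, 597, 807 and 595 CPM in Natural 1 to 4 and from 477 to 531 (median 484) in IVF and was not called, although the groups did not overlap (log2 fold change -0.37 ± 0.11 (SE), adjusted p = 0.07). The median exonic length of the list was 969 bp, in the range where Natural 2, 3 and 4 were high. Only 7 genes were lower under the length offset, with a median of -0.26. In Natural 1, which lacked the length trend, the sum was 43245 CPM, the lowest of the Natural group and above the highest IVF value of 37008. This is the value of 1 library, and the cause of the difference was not tested. The number called fell to 27 without Natural 2, to 37 without Natural 3 and to 38 without IVF 6, and rose to 70 without Natural 1. None was called without IVF 2 and IVF 4 together, where the median was -0.56.

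A part of the tested nuclear genes of the respiratory chain was called lower, and most of these calls were lost with the length offset. Among complex I subunits 10 of 36 tested genes were lower (median -0.43), among complex II and III 3 of 13 (median -0.35), among complex IV and cytochrome c 8 of 12 (median -0.54) and among ATP synthase subunits 8 of 17 (median -0.44), with none higher in any list. Cox8a, a complex IV subunit, was at 90.4, 104, 113 and 118 CPM in Natural 1 to 4 and from 58.4 to 81.9 (median 69.7) in IVF (log2 fold change -0.59 ± 0.12 (SE), adjusted p = 0.016). Uqcr10, of complex III, was at 35.4, 44.6, 53.1 and 55.0 CPM in Natural 1 to 4 and from 26.4 to 30.7 (median 29.7) in IVF (log2 fold change -0.70 ± 0.13 (SE), adjusted p = 0.014). Ndufs7, of complex I, had a log2 fold change of -0.61 ± 0.14 (SE, adjusted p = 0.026), and Atp5e, of ATP synthase, one of -0.64 ± 0.14 (SE, adjusted p = 0.021). Ndufa1, also of complex I, had a log2 fold change of -0.50 ± 0.21 (SE, adjusted p = 0.16). Cox6c and Cox7a2 (complex IV), Uqcrq (complex III), Ndufa5 (complex I) and Sdhc (complex II) had log2 fold changes of -0.72, -0.60, -0.68, -0.75 and -0.54 (adjusted p = 0.021, 0.016, 0.028, 0.03 and 0.027). Without Natural 2 the 4 lists had 1, 1, 3 and 0 calls, and without Natural 1 they had 19, 7, 11 and 14. The length offset removed nearly all of these calls, leaving 0, 1, 0 and 1, with medians of -0.17, -0.15, -0.22 and -0.20; without the offset 27, 9, 11 and 17 genes of these lists had an unadjusted p below 0.05, and DESeq2 called 18, 7, 11 and 15 lower. The 7 tested genes encoded in mitochondrial DNA showed no calls by either tool and none at an unadjusted p below 0.05 (median -0.24). The call of Ndufs7 was lost without Natural 2 or 4 or IVF 2, 4 or 5, those of Atp5e and Cox6c without Natural 2 or 4, that of Uqcrq without Natural 2 or 4 or IVF 1, 2, 4 or 6, that of Ndufa5 without Natural 2 or 4 or IVF 2, 4, 5 or 6, and that of Sdhc without Natural 2 or 4 or IVF 2 or 4 (adjusted p up to 0.096).

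Mitochondrial ribosomal protein genes (4 of 77 lower, median -0.35), translation factors (7 of 32 lower, median -0.29) and proteasome subunits (3 of 31 lower, median -0.28) also had calls in 1 direction. Their median exonic lengths were 1363, 2445.5 and 1581 bp. Of all tested genes of 1000 to 2000 bp, 6.32% were called lower and 0.556% higher. From 2000 to 3000 bp the shares were 2.29% and 0.901%. The shares called lower in the 3 lists were 5.19%, 21.9% and 9.68%. Mrps21, Mrpl34, Eef1b2 and Psmb6 led them, at log2 fold changes of -0.61, -0.58, -0.55 and -0.49 (adjusted p = 0.026, 0.017, 0.02 and 0.02). Their medians with the length offset were -0.13, -0.15 and -0.09. Of 20 tested glycolysis genes 4 were lower and none higher, with a median of -0.45, or -0.43 with the offset. Pgk1, phosphoglycerate kinase, was at 92.0, 75.6, 76.3 and 60.3 CPM in Natural 1 to 4 and from 39.1 to 54.1 (median 45.8) in IVF, without overlap (log2 fold change -0.74 ± 0.13 (SE), adjusted p = 0.014). Ldha, lactate dehydrogenase, was at 533, 446, 635 and 349.7 CPM in Natural 1 to 4 and from 234 to 416 (median 306) in IVF (log2 fold change -0.68 ± 0.17 (SE), adjusted p = 0.038), and Aldoa, aldolase, had a log2 fold change of -0.50 ± 0.12 (SE, adjusted p = 0.035), in both cases with IVF 3 the highest IVF library. Eno1, enolase, had a log2 fold change of -0.75 ± 0.19 (SE, adjusted p = 0.038). Without IVF 3, 12 glycolysis genes were called, and without Natural 2, Natural 3, IVF 1, IVF 2, IVF 4, IVF 5 or IVF 6 only 1. Bnip3, a hypoxia-induced mitophagy receptor, was at 41.5, 36.2, 43.5 and 35.4 CPM in Natural 1 to 4 and from 18.2 to 28.3 (median 21.0) in IVF (log2 fold change -0.83 ± 0.14 (SE), adjusted p = 0.013). Kdm3a, a hypoxia-induced histone demethylase, was higher (log2 fold change 0.48 ± 0.10 (SE), adjusted p = 0.021). Pgk1 and Bnip3 were called in all 10 leave-one-out fits. Ldha was called in 3, Aldoa in 2 and Kdm3a in 7, each lost without Natural 2 or Natural 3 (adjusted p from 0.018 to 0.097 for Ldha). Aldoa and Kdm3a were also lost without Natural 4, and Ldha and Aldoa without IVF 1, 2, 4, 5 or 6. With the offset no glycolysis gene was called, and Pgk1 had -0.60 (adjusted p = 0.067). Without Natural 2 the mitochondrial ribosomal, translation factor and proteasome lists had 0 calls, and without Natural 1 they had 19, 17 and 12. The call of Mrps21 was lost without Natural 2 or 4 or IVF 2, those of Mrpl34 and Eef1b2 without Natural 2, that of Psmb6 without Natural 2 or 4, and that of Eno1 without Natural 2 or 3 or IVF 1, 2, 4, 5 or 6 (adjusted p up to 0.096).

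**Figure D5:**
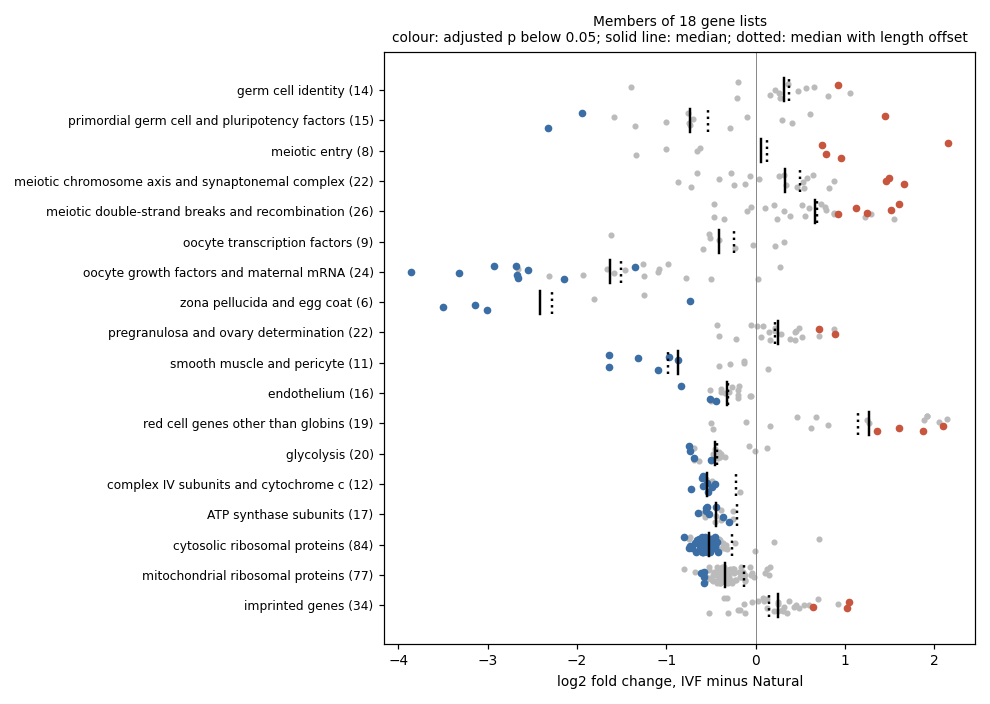
Log2 fold change (IVF minus Natural) of every tested member of 18 gene lists, with the number tested in parentheses; coloured points had an adjusted p below 0.05, solid lines are list medians and dotted lines the medians with the length offset. Egg coat and oocyte growth genes lie furthest left, and the dotted lines move toward 0 for ribosomal protein and respiratory lists, stay near the solid line for glycolysis (-0.43 against -0.45) and move away from 0 for smooth muscle.

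Of 19 tested mitosis genes and 20 DNA replication genes, 1 each was called, both lower. Cdk1, the mitotic kinase, was at 58.2, 68.8, 85.1 and 69.4 CPM in Natural 1 to 4 and from 38.7 to 50.3 (median 45.5) in IVF, without overlap (log2 fold change -0.64 ± 0.12 (SE), adjusted p = 0.014), and Gins2, of the replicative helicase, had a log2 fold change of -0.67 ± 0.13 (SE, adjusted p = 0.017). Both were called with the length offset, and Gins2 was lost without Natural 2 (adjusted p from 0.012 to 0.051). Mki67 and Top2a, markers of dividing cells, had log2 fold changes of 0.15 and 0.02 (adjusted p = 0.63 and 0.96). No gene of 23 tested p53 targets and oocyte death genes was called by edgeR or DESeq2, and 1 had an unadjusted p below 0.05. Trp63, whose TAp63 form governs removal of damaged oocytes, was at 47.9, 41.3, 17.4 and 50.04 CPM in Natural 1 to 4 and from 4.63 to 44.2 (median 26.8) in IVF (log2 fold change -0.69 ± 0.48 (SE), adjusted p = 0.40), and Cdkn1a, the p53 target that halts the cycle, had a log2 fold change of 0.16 ± 0.14 (SE, adjusted p = 0.53). Fos and Egr1, immediate early genes, had -0.51 and -0.31 (adjusted p = 0.44 and 0.19). Klf2, a flow-responsive factor in that list, had a log2 fold change of -0.61 ± 0.15 (SE, adjusted p = 0.036). Hspa1b, a heat shock protein, was at 16.5, 12.9, 15.1 and 10.8 CPM in Natural 1 to 4 and from 2.80 to 11.3 (median 5.88) in IVF (log2 fold change -1.08 ± 0.29 (SE), adjusted p = 0.048), a call that held only without IVF 6 (adjusted p from 0.036 to 0.099). The call of Klf2 was lost without Natural 1, 2 or 4 or IVF 1, 2, 4 or 5 (adjusted p up to 0.094).

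Of 34 tested imprinted genes 3 were higher and none lower, with a median of 0.25. Zim1, which is maternally expressed, and Peg3, its paternally expressed neighbour, on chromosome 7 at 6674444 to 6696540 and 6703892 to 6730462 (GRCm38.p6), were both higher. Zim1 was at 174, 80.5, 83.0 and 68.6 CPM in Natural 1 to 4 and from 159 to 256 (median 205) in IVF (log2 fold change 1.05 ± 0.24 (SE), adjusted p = 0.026) and Peg3, a zinc finger protein, at 1329, 979.6, 858 and 879.8 CPM in Natural 1 to 4 and from 1332 to 1738 (median 1615) in IVF (log2 fold change 0.64 ± 0.14 (SE), adjusted p = 0.023). Peg10, a retrotransposon-derived gene (chromosome 6, 4747306 to 4760517), was at 202, 116, 91.6 and 112 CPM in Natural 1 to 4 and from 183 to 353 (median 261) in IVF (log2 fold change 1.03 ± 0.24 (SE), adjusted p = 0.028). In each gene Natural 1 was the highest Natural library. It lay above the lowest IVF value in Zim1 and Peg10 and just below it in Peg3. The 3 calls were lost without any of Natural 2, Natural 3, Natural 4, IVF 2 or IVF 4, and that of Peg10 also without IVF 6 (adjusted p from 0.0016 to 0.078, 0.0033 to 0.064 and 0.005 to 0.08 in the order Zim1, Peg3, Peg10). With the offset they had 0.86 (adjusted p = 0.04), 0.40 (adjusted p = 0.079) and 0.86 (adjusted p = 0.059). Igf2, a fetal growth factor, and H19, the noncoding RNA beside it, were at -0.30 and -0.04 (adjusted p = 0.44 and 0.90). Cdkn1c and Dlk1, maternally and paternally expressed growth regulators, had 0.12 and -0.17 (adjusted p = 0.70 and 0.48). Meg3, the maternally expressed RNA of the Dlk1 domain, was at 178, 1315, 1284 and 1867 CPM in Natural 1 to 4 and from 1340.4 to 2819 (median 1740.5) in IVF (log2 fold change 0.70 ± 0.44 (SE), adjusted p = 0.35), and Natural 1 lay far below the other 9 libraries.

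Col1a1, the main collagen gene of stroma, had a log2 fold change of -0.002 ± 0.16 (adjusted p = 1.00), and of 41 tested collagen genes only Col11a2, a minor fibrillar chain, was called (log2 fold change 1.20 ± 0.32 (SE), adjusted p = 0.044), a call kept only without Natural 1 or Natural 3 (adjusted p from 0.028 to 0.10). Serpine2, a serine protease inhibitor, had a log2 fold change of -0.57 ± 0.14 (SE, adjusted p = 0.035). Fdft1, squalene synthase of the cholesterol pathway, had a log2 fold change of -0.59 ± 0.16 (SE, adjusted p = 0.046). Xist, the long RNA that coats the inactive X chromosome, was at 606, 1566, 1922 and 1149.6 CPM in Natural 1 to 4 and from 2116 to 2784 (median 2265) in IVF; every IVF library was above every Natural one, and the test was not passed (log2 fold change 0.86 ± 0.24 (SE), adjusted p = 0.057). The call of Serpine2 was lost without Natural 2 or 4 or IVF 2, 4, 5 or 6, and that of Fdft1 without Natural 2, 3 or 4 or IVF 2, 3, 4, 5 or 6 (adjusted p up to 0.13).

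Bc1 had the smallest p of all genes that were lower. It is a short cytoplasmic RNA transcribed by RNA polymerase III that binds translation initiation factors, and it carries an internal run of A. The transcript (168 bases, GENCODE M21 on GRCm38) is shown because the libraries were made with an mRNA kit; the run of A is in capitals, at bases 77 to 99.
Bc1: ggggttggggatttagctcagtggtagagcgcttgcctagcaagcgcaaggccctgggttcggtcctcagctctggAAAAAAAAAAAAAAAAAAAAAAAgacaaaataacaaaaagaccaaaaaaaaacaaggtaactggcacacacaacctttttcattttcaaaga
Bc1 was at 683, 911, 994 and 857 CPM in Natural 1 to 4 and from 176 to 366 (median 309.7) in IVF, with a wide gap between the groups (log2 fold change -1.54 ± 0.18 (SE), adjusted p = 0.0055). The call held in all 10 leave-one-out fits, with the offset, -1.20 (adjusted p = 0.018), and without IVF 2 and IVF 4 together (adjusted p = 0.0087).

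Other short RNA differed most in single Natural libraries. Rmrp, the RNA of RNase MRP, was at 5.83, 3.81, 189 and 2.70 CPM in Natural 1 to 4 and from 0 to 1.41 (median 0.248) in IVF, and Rn7sk, a regulator of transcription elongation, at 71.8, 9.07, 201 and 11.2 CPM in Natural 1 to 4 and from 1.84 to 6.41 (median 2.87) in IVF. Neither overlapped between groups, Natural 3 was highest in both, and Natural 1 was also high in Rn7sk. The fitted log2 fold changes were -6.74 ± 1.29 and -4.29 ± 0.75 (adjusted p = 0.015 and 0.013). Leaving out Natural 1 and Natural 3 together left -2.83 and -1.44 (adjusted p = 0.039 and 0.046). Mir6236 and Hist1h4h, at -3.76 and -3.50 (adjusted p = 0.017 and 0.026), were also highest in Natural 3, and Snord2, a small nucleolar RNA, had a log2 fold change of 1.64 ± 0.43 (SE, adjusted p = 0.043). For Snord2 no Natural library reached the filter on low counts, for Hist1h4h no IVF library and for Rmrp 1 IVF library did, so these genes were tested because of their level in the other group. Of all called genes, 15 reached the filter in IVF libraries only and 5 in Natural libraries only. Replication-dependent histone genes, whose mRNA lacks a poly(A) tail, had 4 of 22 tested genes lower and a median of -1.15, which became -0.22 without those libraries. Their sum in Natural 3 was 319 CPM against 86.2 to 97.8 in the other Natural libraries. The histone list had 0 calls without Natural 3, IVF 1 or IVF 6. The call of Hist1h4h was lost without Natural 3 or IVF 1, 4 or 6, and that of Snord2 without Natural 2, 3 or 4 or IVF 1, 2, 4, 5 or 6 (adjusted p up to 0.11).

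The genes with the smallest p among those higher and not overlapping were led by Kcng3, a modifier subunit of voltage-gated potassium channels (chromosome 17, 83574023 to 83631995), at 14.5, 9.52, 9.47 and 6.56 CPM in Natural 1 to 4 and from 30.5 to 42.3 (median 37.7) in IVF (log2 fold change 1.87 ± 0.20 (SE), adjusted p = 0.0049). Ccnb3, cyclin B3, which is made in meiotic germ cells and is needed for anaphase of the first meiotic division, was at 4.58, 7.71, 4.49 and 3.52 CPM in Natural 1 to 4 and from 16.9 to 34.1 (median 23.5) in IVF (log2 fold change 2.21 ± 0.26 (SE), adjusted p = 0.0055). D1Pas1, an autosomal DEAD-box helicase of germ cells, was at 8.07, 8.34, 6.08 and 8.93 CPM in Natural 1 to 4 and from 12.6 to 23.6 (median 20.4) in IVF (log2 fold change 1.30 ± 0.19 (SE), adjusted p = 0.012). Zfp541, a chromatin protein of meiotic prophase, was at 7.33, 13.9, 4.49 and 11.2 CPM in Natural 1 to 4 and from 20.7 to 43.1 (median 32.9) in IVF (log2 fold change 1.83 ± 0.29 (SE), adjusted p = 0.013), and Tex16, a germ cell gene of the X chromosome, at 4.50, 6.53, 2.69 and 2.64 CPM in Natural 1 to 4 and from 11.5 to 21.5 (median 14.6) in IVF (log2 fold change 1.90 ± 0.29 (SE), adjusted p = 0.013).

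The remaining named genes in this group were Med12l, a paralog of a Mediator subunit (log2 fold change 1.40 ± 0.18 (SE), adjusted p = 0.0085), Uvssa, of transcription-coupled repair (log2 fold change 0.80 ± 0.11 (SE), adjusted p = 0.012), and Stab2, a scavenger receptor of sinusoidal endothelium, at 3.66, 2.81, 3.49 and 2.64 CPM in Natural 1 to 4 and from 7.29 to 9.40 (median 8.82) in IVF (log2 fold change 1.44 ± 0.21 (SE), adjusted p = 0.012). Aff3, a nuclear elongation factor family member, Zkscan2, a zinc finger gene, Mtr, methionine synthase, and Nav2, a neuron navigator, had log2 fold changes of 0.69, 1.14, 0.82 and 0.56 (adjusted p = 0.012, 0.012, 0.012 and 0.013). The 12 named genes above were called in all 10 leave-one-out fits. With the length offset Uvssa and Nav2 were no longer called, at 0.57 (adjusted p = 0.054) and 0.20 (adjusted p = 0.39). LOC108167440 and Gm30789, predicted genes, completed the first 15 at 0.94 (adjusted p = 0.012) and 1.51 (adjusted p = 0.012).

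Among genes lower and not overlapping, Bst2, tetherin, an interferon-induced surface protein, was at 86.5, 97.8, 74.4 and 104 CPM in Natural 1 to 4 and from 32.3 to 50.5 (median 44.1) in IVF (log2 fold change -1.08 ± 0.14 (SE), adjusted p = 0.0085). S100a6, a calcium-binding protein, was at 101, 91.2, 135 and 123.1 CPM in Natural 1 to 4 and from 55.1 to 65.2 (median 60.5) in IVF (log2 fold change -0.91 ± 0.12 (SE), adjusted p = 0.0085), and Tagln2, an actin-bundling protein, at 167, 124, 168 and 133 CPM in Natural 1 to 4 and from 70.5 to 95.6 (median 80.2) in IVF (log2 fold change -0.86 ± 0.12 (SE), adjusted p = 0.011). Tm4sf1, an endothelial and mesothelial tetraspanin-like protein, was at 39.5, 33.8, 42.6 and 38.9 CPM in Natural 1 to 4 and from 18.9 to 24.4 (median 22.0) in IVF (log2 fold change -0.82 ± 0.12 (SE), adjusted p = 0.012), and Igfbp7, an insulin-like growth factor binding protein of vessels and stroma, had a log2 fold change of -0.88 ± 0.14 (SE, adjusted p = 0.013). Crip1, a LIM protein, Mif, a cytokine, Snrpd2, a spliceosome core protein, and Lamtor2, a scaffold of mTORC1 on lysosomes, had -1.20, -0.73, -0.67 and -0.79 (adjusted p = 0.013, 0.011, 0.013 and 0.013). All 9 were called in every leave-one-out fit. The offset ended the calls of Mif and Lamtor2, at -0.39 (adjusted p = 0.088) and -0.48 (adjusted p = 0.056).

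Whether the IVF difference at E18.5 differed from that of adult ovaries was tested in one model over the 29 whole-ovary libraries of 3 ages, in which the difference between differences is a contrast. Both contrasts use the same 10 E18.5 libraries. Against 12 weeks, 0.0406% of 19724 genes had a more positive and 0.274% a more negative IVF effect at E18.5. Against 39 weeks the shares were 2.85% and 5.1%. Oocyte genes were among those that differed. In the oocyte growth list 8 of 39 tested genes had a more negative effect at E18.5 than at 12 weeks and 16 more than at 39 weeks, and in the egg coat list 2 and 4 of 9. The median IVF effect in the oocyte growth list was 0.43 in 12-week and 0.45 in 39-week ovaries.

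Btg4 had a fitted log2 IVF effect of -2.95 in the fetus. In the adult it was 0.45 (12 weeks) and 0.86 (39 weeks), and the differences from the fetal effect were -3.40 (adjusted p = 0.039) and -3.81 (adjusted p = 7.8e-04). For Khdc3 the effects were -3.36, 0.40 and 0.15, with differences of -3.76 (adjusted p = 0.037) and -3.51 (adjusted p = 0.0016). Meioc differed in the positive direction from 39 weeks, 2.94 (adjusted p = 0.0052), and not detectably from 12 weeks, 1.19 (adjusted p = 0.45). Ribosomal protein genes had a more negative effect at E18.5 than at 39 weeks in 74 of 84 genes and than at 12 weeks in 1, and their median IVF effect was -0.04 and 0.42 at these ages, in the order 12 and 39 weeks. Glycolysis genes differed likewise from 39 weeks in 13 of 20 and from 12 weeks in 0. Their median IVF effect was -0.18 at 12 weeks and 0.40 at 39 weeks. The length offset was not applied in the model of 3 ages, so the part of the length trend in these counts was not tested. Counts against 12 weeks rested on single libraries: without IVF 2 they were 1 more positive and 3 more negative, and without Natural 3 they were 14 and 82.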

How the data were processed

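Polyadenylated RNA of whole E18.5 ovaries was sequenced. According to the submitters' processing notes, the authors used Trimmomatic 0.32, STAR 2.3.0e, featureCounts 1.5.0, DESeq2 and mm10. Deposited values were raw counts per gene, with replicates not pooled, for 35976 gene names, 27 of which had been turned into numbers and name no gene here. Whether counting used strand is not given in the sources used here, so overlapping and antisense genes are uncertain. Tables of single oocytes and other low-input samples were not used here.

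Samples were grouped by their labels. Counts were filtered (filterByExpr), scaled by TMM and tested with edgeR 4.0.16 (quasi-likelihood, R 4.3.3), with Benjamini-Hochberg adjusted p below 0.05 as the call. The interaction contrasts were fitted over E18.5, 12-week and 39-week ovaries. DESeq2 1.42.0, other scalings and filters, left-out libraries, the replicate block and an offset from a lowess trend (span 0.5) on exonic length were alternatives. Exonic length was known for 92.7% of tested genes. Lists were described by counts and medians, without set tests. Scripts were tested on simulated data. Depth was 6995713 to 14830788 counts per library, and no library pair agreed within sampling noise.

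Named genes were the 15 with the smallest p in each direction among called genes whose groups did not overlap, up to 4 called members of each list with the largest change, and a fixed set named whatever its result. Items withheld for evaluation are not reported here. The members and lists were chosen with earlier results of these data known.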

Additional observations from a re-analysis of the deposited data

Results flagged for a closer look

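In 32 of 420 groups of 4 Natural or 6 IVF libraries examined (the named genes and the summed lists), the highest or lowest library was separated from the rest by a gap larger than Dixon's 95% critical value. Values are in CPM, each against the range of the other libraries of its group. Chance flags about 1 group in 20. IVF 3 stood apart in 11 of these. In it Lmod1 was at 13.0 against 4.33 to 7.02, Cldn5 was at 37.9 against 24.1 to 26.9, Cox6c was at 60.0 against 89.6 to 107, Eno1 was at 301 against 149 to 200.2, Aldoa was at 654 against 417 to 496. It also had Rpl3 at 531 against 477 to 493, Rmrp at 1.41 against 0 to 0.501, the sum of TGF-beta, BMP and activin pathway at 2549 against 2964 to 3104, the sum of mitochondrially encoded genes at 4692 against 11159.8 to 14294, the sum of glycolysis at 4911 against 2967 to 3482, the sum of hypoxia targets at 1544 against 1018 to 1201. Natural 3 stood apart in 7 of these. In it Star was at 5.39 against 7.35 to 7.66, Rmrp was at 189 against 2.70 to 5.83, Hist1h4h was at 11.47 against 1.17 to 2.36, Mir6236 was at 386 against 19.9 to 65.6, the sum of small noncoding RNAs was at 625 against 93.5 to 108. It also had the sum of replication-dependent histone genes at 319 against 86.2 to 97.8, the sum of microRNA hosts and precursors at 491 against 101 to 117. Natural 1 stood apart in 4 of these. In it Mrpl34 was at 31.0 against 37.0 to 37.5, Zim1 was at 174 against 68.6 to 83.0, Med12l was at 14.0 against 8.18 to 9.17, the sum of p53 targets and oocyte death was at 1240.3 against 1051 to 1078. Natural 2 stood apart in 2 of these. In it Sycp2 was at 17.1 against 9.37 to 10.3, Lhcgr was at 0.181 against 0.499 to 0.541. IVF 1 stood apart in 2 of these. In it Spo11 was at 1.504 against 4.99 to 7.01, Serpine2 was at 69.4 against 53.9 to 58.9. Natural 4 stood apart in 2 of these. In it Igfbp7 was at 165 against 113 to 122, the sum of steroid synthesis was at 405 against 380.3 to 381. IVF 5 stood apart in 1 of these. In it Astl was at 2.80 against 0 to 1.00. IVF 4 stood apart in 1 of these. In it Wnt4 was at 200.1 against 125 to 146. IVF 2 stood apart in 1 of these. In it Hba-a1 was at 820.3 against 328 to 509. IVF 6 stood apart in 1 of these. In it the sum of DNA methylation enzymes and cofactors was at 1849 against 1928 to 1970.5.

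Some of the germline genes below were named because they were called with a large change at E18.5, and both contrasts use those libraries. The counts are therefore a description. Over all 19724 genes the shares more negative and more positive at E18.5 were 0.274% and 0.0406% against 12 weeks. Against 39 weeks they were 5.1% and 2.85%. Among 42 germline genes tested for a difference between the IVF effect at E18.5 and that at 12 weeks (edgeR, adjusted over all genes), 7 passed, all more negative at E18.5. As log2 differences between the effects they were Zp1 (-3.65, adjusted p = 0.049), Astl (-4.12, adjusted p = 0.049), Gdf9 (-2.65, adjusted p = 0.049), Oas1d (-4.42, adjusted p = 0.037), Khdc3 (-3.76, adjusted p = 0.037), Btg4 (-3.40, adjusted p = 0.039), Nlrp14 (-3.54, adjusted p = 0.049). Against 39 weeks 18 passed. Those more negative at E18.5 were Pou5f1 (-2.80, adjusted p = 0.014), Dppa5a (-2.16, adjusted p = 0.04), Zp1 (-3.14, adjusted p = 0.012), Zp3 (-3.17, adjusted p = 0.03), Astl (-3.85, adjusted p = 0.0098), Gdf9 (-2.59, adjusted p = 0.0059), Bmp15 (-1.96, adjusted p = 0.048), Oas1d (-4.19, adjusted p = 0.0012), Khdc3 (-3.51, adjusted p = 0.0016), Btg4 (-3.81, adjusted p = 7.8e-04), Nlrp14 (-2.94, adjusted p = 0.016), Padi6 (-2.64, adjusted p = 0.032). Those more positive at E18.5 were Ythdc2 (0.88, adjusted p = 0.014), Meioc (2.94, adjusted p = 0.0052), Sycp1 (3.86, adjusted p = 0.0031), Sycp2 (2.18, adjusted p = 0.022), Ankrd31 (3.27, adjusted p = 0.04), Cntd1 (1.72, adjusted p = 0.032). A difference holds the adult effect as well as the fetal one and is not the size of the fetal change. At E18.5 alone Sycp1 had a log2 fold change of 0.82 and was not called (edgeR, adjusted p = 0.091), and Ankrd31 had 1.52. The explanation of these differences was not tested.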

How the results depend on the processing

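The E18.5 counts of genes called higher and lower stayed within 1.5 times under RLE and upper-quartile factors, without the abundant classes before normalization and with other filters. DESeq2 gave 933 and 991, the length offset 152 and 125, and a fold change of at least 1.5 left 292 and 251. Leaving out single libraries gave 161 to 1056 higher and 152 to 917 lower, lowest without Natural 2 and highest without Natural 1. After the data were seen, IVF 2 and IVF 4 were left out together (3 and 2) and Natural 1 and Natural 3 together (924 and 912). The fit with the replicate number as a block called 2 and 1. The numbers did not pair the samples: correlations of same-numbered deviations were 0.010, -0.058, -0.050 and -0.13. Against 12 weeks, genes with a higher and lower effect at E18.5 numbered 88 and 259 by DESeq2 and 2 and 10 with at least 10 counts in every library. RLE factors gave 23 lower, and single libraries left out gave 1 to 22 and 3 to 82. Against 39 weeks DESeq2 gave 1084 higher, and single libraries left out gave 338 to 824 and 758 to 1154. Of 1156 alternative medians of the 58 lists, 1111 stayed within 1 SD, 45 moved further and 53 changed sign. Some genes that were not called changed the sign of the log2 fold change as follows. Without IVF 2 and IVF 4 together it was 0.16 for Kit, 0.076 for Sycp3, 0.27 for Lhx8, -0.0016 for Fst, -3.4e-04 for Top2a and -0.021 for Cdkn1a. With the length offset it was 0.11 for Sycp3, 0.092 for Lhx8, -0.14 for Mki67, -0.092 for Top2a and 0.061 for H19. Without Natural 1 and Natural 3 together it was -0.033 for Hormad1, -0.12 for Foxl2, -0.16 for Fst, -0.30 for Nr5a1, 0.17 for Igf2 and 0.078 for H19. With at least 10 counts in every library it was -0.055 for Amh and -0.34 for Snord2. With the replicate block it was 0.010 for H19 and 0.083 for Col1a1. Leaving out single libraries gave values from -0.33 to 0.058 for Kit, from -0.33 to 0.041 for Sycp3, from -0.28 to 0.17 for Lhx8, from -0.026 to 0.43 for Fst, from -0.17 to 0.30 for Nr5a1, from -0.0019 to 0.31 for Mki67, from -0.13 to 0.16 for Top2a, from -0.12 to 0.044 for H19, from -0.028 to 0.22 for Cdkn1c and from -0.099 to 0.16 for Col1a1. The cause was not tested. Depth limits the fold changes of genes with few counts, such as Astl, Zp1 and Oas1d.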
